A study of Mus musculus with 4 samples.

Results

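The cyclin-dependent kinase inhibitor genes of the CIP/KIP and INK4 families comprise 7 mouse genes, Cdkn1a, Cdkn1b, Cdkn1c, Cdkn2a, Cdkn2b, Cdkn2c and Cdkn2d, out of 24312 genes listed in the deposited table. They were chosen by gene symbol, 3 of them CIP/KIP and 4 INK4, and all 7 had a row in every library and passed the filter on low counts. The family itself was selected on the counts and FPKM of these same 4 libraries, with its differences between the groups already known. Those differences, their intervals and their p-values are therefore a description, and nothing is supported with them.

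The BATF cells were P14 CD8 T cells of C57BL/6 background, whose transgenic receptor recognises a peptide of lymphocytic choriomeningitis virus, transduced with MIG-BATF, an MSCV retrovirus carrying BATF ahead of an internal ribosome entry site and GFP. BATF pairs with JUN proteins through a leucine zipper and belongs to the AP-1 transcription factors. The MIG cells were the same kind of P14 CD8 T cells transduced with the MSCV-IRES-GFP vector without an insert. Both groups were activated for 1 day with 100 ng/ml gp33, spin transduced, activated for 1 more day, and grown in IL-2 at 10 ng/ml for another 2 days. CD8+ GFP+ cells were then sorted and kept for 2 further days in 1 ng/ml IL-2 before poly(A) RNA sequencing. Each group had 2 libraries, called biological replicates in the series' design text. Nothing says that they came from separate mice, so a p-value here weighs a difference against library-to-library spread that may be technical. Transduced cells were sequenced as bulk populations, in which a change in the share of cells with a transcript and a change in transcript per cell cannot be told apart. The vector's copy of BATF and the cells' own Batf were not separated.

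The BATF libraries held 19004726 and 21835962 fragments and the MIG libraries 24795707 and 20354627. Batf stood at 1342 and 933.9 CPM (counts scaled to library size with TMM factors) in the BATF libraries, against 36.11 and 26.50 CPM in the MIG libraries. The summed level of the T cell markers Cd3d, Cd3e, Cd3g, Cd8a and Cd8b1 lay between 2020 and 2290 CPM in BATF and between 2530 and 2620 CPM in MIG. Of the 17 markers of B, myeloid, CD4 and regulatory T, NK, erythroid, stromal and epithelial cells, Itgam reached the highest level, 7.68 CPM in a MIG library. No marker was at 0 in all libraries. The T cell sum was lower in both BATF libraries than in both MIG libraries, while the NK and erythroid sums, at most 0.422 and 0.685 CPM, were higher in both BATF libraries. The part of these markers in the results was not tested.

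Cyclin-dependent kinases (CDKs) drive the cell cycle when bound to a cyclin. INK4 proteins bind the monomeric kinases CDK4 and CDK6 and keep D-type cyclins from activating them, whereas CIP/KIP proteins bind cyclin-CDK complexes and can block CDK2 as well as help assemble complexes of D-type cyclins. Inhibition of these kinases keeps RB in the form that restrains E2F factors, which holds cells in G1. In T cells p27, the product of Cdkn1b, and p18, the product of Cdkn2c, are known as brakes on division after antigen and IL-2 stimulation.

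Cdkn2a and Cdkn2b are neighbours on chromosome 4, with Cdkn2a alone between Cdkn2b and Mtap among the listed genes, in the RefSeq order of genes. The windows from 250 bases before to 50 bases after their transcription starts are shown because both genes of this pair were higher in BATF cells. A further reason is that the 2 starts of Cdkn2a give 2 unrelated proteins. From the upstream start comes p19ARF, which binds MDM2 and thereby stabilises p53, and from the downstream start comes the kinase inhibitor p16INK4a. The sequences are RefSeq's, build GRCm38.p6, minus strand, written 5′ to 3′. Capitals mark the AP-1-like octamer TGANNTCA and the GC box GGGCGG where it reads forward or in reverse complement.
Cdkn2b, chr4:89310983-89311282: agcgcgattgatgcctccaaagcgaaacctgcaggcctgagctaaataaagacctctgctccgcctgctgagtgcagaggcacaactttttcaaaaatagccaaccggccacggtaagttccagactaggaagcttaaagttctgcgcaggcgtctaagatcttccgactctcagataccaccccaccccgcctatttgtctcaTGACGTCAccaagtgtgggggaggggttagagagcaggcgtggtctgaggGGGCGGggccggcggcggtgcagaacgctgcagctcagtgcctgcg
Cdkn2a upstream start, chr4:89294570-89294869: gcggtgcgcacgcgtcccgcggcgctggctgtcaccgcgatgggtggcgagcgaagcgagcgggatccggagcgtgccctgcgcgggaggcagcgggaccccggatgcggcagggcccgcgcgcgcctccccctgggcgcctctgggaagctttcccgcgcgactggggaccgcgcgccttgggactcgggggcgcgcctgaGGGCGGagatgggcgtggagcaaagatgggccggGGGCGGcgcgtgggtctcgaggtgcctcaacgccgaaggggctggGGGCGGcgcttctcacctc
Cdkn2a downstream start, chr4:89282143-89282442: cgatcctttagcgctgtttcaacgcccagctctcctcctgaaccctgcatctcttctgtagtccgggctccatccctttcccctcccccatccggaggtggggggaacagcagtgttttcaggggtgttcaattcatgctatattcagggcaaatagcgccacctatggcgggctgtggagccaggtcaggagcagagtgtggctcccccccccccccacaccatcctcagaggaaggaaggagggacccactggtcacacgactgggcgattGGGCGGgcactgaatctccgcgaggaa

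The Cdkn2b window held 1 TGANNTCA match, TGACGTCA, which begins 46 bases before the start. TGANNTCA, with any bases at the N positions, occurred on either strand in 14.1% of all 32851 promoter windows of the same length. It was in 1 of the 9 windows found for the CDK inhibitor genes. The share of windows with TGACGTCA itself was not counted. Cdkn1a, also higher in BATF cells, is not shown, and its 2 windows held no TGANNTCA match. The AP-1 heptamer TGANTCA, present in 7.81% of all windows, was in 0 of the 9. The forkhead motif GTAAACA, present in 3.65% of all windows, was in 0 of the 9 as well. GGGCGG was in 7 of the 9 windows and in 35.7% of all windows. Its exceptions were the first listed start of Cdkn1a and the second listed start of Cdkn2c. Apart from that Cdkn2c start (44% GC), the 9 windows were all richer in GC than the median of 52.7% over all windows. The highest, the upstream start of Cdkn2a, had 77%. The part of base composition in the GGGCGG share was not tested. The 9 windows cover 6 of the 7 genes, Cdkn1c being the other one. These motif matches are letters in a window and say nothing of what binds there, and the letters of the authors' build, mm9, were not used.

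Of the 7 CDK inhibitor genes, Cdkn1a, Cdkn2a and Cdkn2b were higher in BATF cells at an adjusted p under 0.05 in edgeR and also in DESeq2. None of the 7 was lower in edgeR or DESeq2, nor at an unadjusted p under 0.05 in edgeR. Cdkn2b, which encodes the INK4 protein p15, differed by 5.32-fold, Cdkn2a by 2.49-fold and Cdkn1a, which encodes p21, by 2.06-fold. Cdkn1b, Cdkn2c and Cdkn2d lay within 0.11 log2 units of no change, and Cdkn1c was near the detection limit. In the same edgeR quasi-likelihood fit over 13008 genes, 1.09% of genes were called, 0.884% higher and 0.208% lower in BATF. Both BATF libraries were above both MIG libraries in 4 of the 7 (19.2% of all genes) and below them in 0 (19.4% of all genes). Cdkn1c is among these 4 but passed the low-count filter only through its BATF libraries (0.6854 and 0.5055 CPM, against 0.3268 and 0.1456 CPM in MIG). Its place there was therefore partly set by the filter. Nothing is read from the comparison of the family with that background, because the family was picked with these fold changes known.

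**Figure D1:**
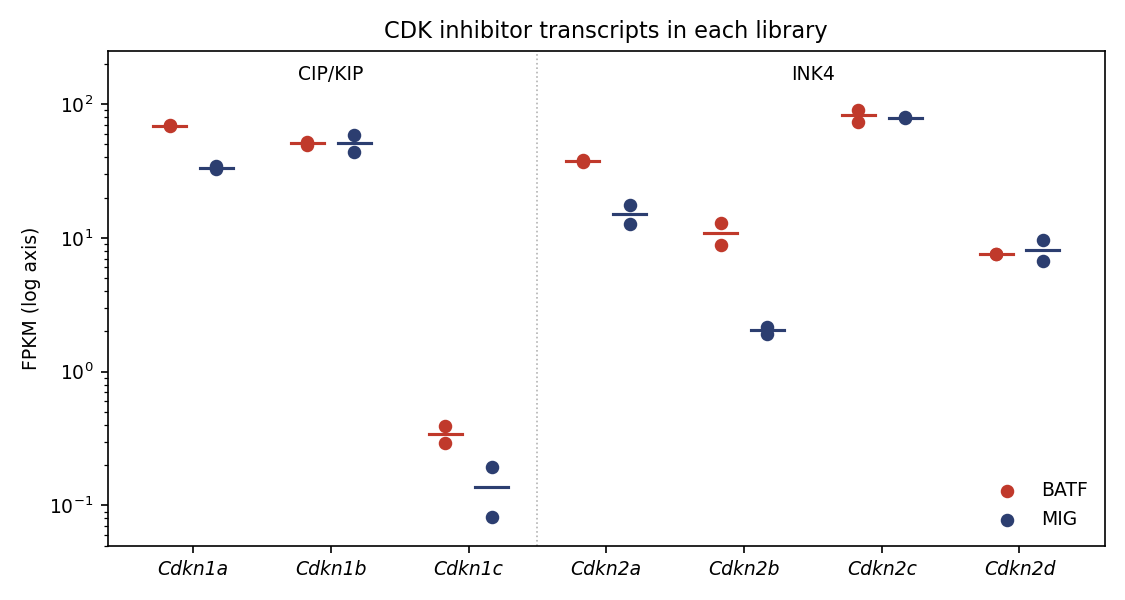
FPKM of each CDK inhibitor gene on a log axis, with 1 point per library (red BATF, blue MIG) and a bar at the mean of the 2 libraries of a group. Cdkn1a, Cdkn1c, Cdkn2a and Cdkn2b show both BATF points above both MIG points, and in the other genes the groups overlap.

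Among the CIP/KIP genes, Cdkn1a encodes p21, an inhibitor of CDK2 complexes and a textbook target of p53. Cdkn1a had 69.7 and 68.1 FPKM (fragments scaled to transcript length and library depth) in the BATF libraries, against 32.5 and 34.5 FPKM in the MIG libraries. The groups did not overlap, and the replicates of a group lay close together compared with the gap between the groups. In CPM, the level on which the fold change rests, Cdkn1a averaged 120.3 ± 3.51 in BATF cells and 58.3 ± 3.95 in MIG cells (SD, n = 2 each). The log2 fold change was 1.05 ± 0.09 SE, with a 95% interval of 0.83 to 1.26 (edgeR adjusted p = 0.00839), which placed the gene 14th among the 13008 genes by p-value.

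Cdkn1b encodes p27, the inhibitor that falls when resting T cells enter the cycle, largely by protein degradation. Cdkn1b had 52.4 and 49.2 FPKM in the BATF libraries, against 58.5 and 43.7 FPKM in the MIG libraries. Both BATF values lay inside the range of the MIG values. The log2 fold change was -0.00051 ± 0.13 SE, and its 95% interval ran from -0.31 to 0.31 (edgeR adjusted p = 0.9998). The MIG libraries differed from each other more than the BATF libraries did, with 128.6 and 99.8 CPM.

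Cdkn1c is an imprinted gene that encodes p57, an inhibitor best known from development and stem cell quiescence. Cdkn1c had 13 and 11 fragments in the BATF libraries, against 8 and 3 fragments in the MIG libraries. Exact Poisson 95% intervals, which cover counting error only, ran from 6.92 to 22.2 and from 5.49 to 19.7 fragments in BATF, and from 3.45 to 15.8 and from 0.619 to 8.77 fragments in MIG. The BATF values were both above the MIG values, but the intervals overlapped, and the log2 fold change of 1.27 ± 0.58 SE did not pass (95% interval -0.12 to 2.65, edgeR adjusted p = 0.515). At 0.39 and 0.29 FPKM in BATF and 0.19 and 0.082 FPKM in MIG it was the lowest member of the family in every library.

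Among the INK4 genes, Cdkn2b showed the widest difference. The gene is known as a target of TGF-beta signalling in epithelial cells and is repressed there by MYC. Cdkn2b had 8.82 and 12.9 FPKM in the BATF libraries, against 2.16 and 1.93 FPKM in the MIG libraries. These values rest on 205 and 339 fragments in BATF and on 63 and 49 fragments in MIG. The groups did not overlap, although the BATF libraries stood apart from each other, at 10.8 and 15.6 CPM. The log2 fold change was 2.41 ± 0.23 SE (95% interval 1.86 to 2.97, edgeR adjusted p = 0.0113). RefSeq places a long non-coding RNA gene, Gm12610, over Cdkn2b, and it was not analysed here. No source used here states whether counting used strand, so fragments of the pair may not be separable.

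Cdkn2a had 36.9 and 38.3 FPKM in the BATF libraries, against 17.7 and 12.6 FPKM in the MIG libraries. All BATF values were above all MIG values, and the MIG libraries were the more variable pair. The log2 fold change was 1.32 ± 0.17 SE (95% interval 0.92 to 1.72, edgeR adjusted p = 0.0243). Cdkn2a did not pass in limma on log2(FPKM + 1) (adjusted p = 0.0659) and on log2(FPKM + 0.1) (adjusted p = 0.0561), at log2 fold changes of 1.28 and 1.33. The 2 annotated transcripts of the gene, Cdkn2a-201 and Cdkn2a-202 of GENCODE M21 (GRCm38), share 575 exonic bases, 67.5% of the first and 64.2% of the second. The table has 1 value per gene, so p16INK4a and p19ARF messages could not be told apart.

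Cdkn2c encodes p18, the most abundant member of the family by FPKM in each of the 4 libraries. Cdkn2c had 73.8 and 90.6 FPKM in the BATF libraries, against 80.3 and 78.2 FPKM in the MIG libraries. The BATF values lay on either side of the MIG values. The log2 fold change was 0.04 ± 0.11 SE (95% interval -0.21 to 0.30, edgeR adjusted p = 0.965).

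Cdkn2d encodes p19INK4d, a different protein from p19ARF. Cdkn2d had 7.53 and 7.56 FPKM in the BATF libraries, against 9.58 and 6.71 FPKM in the MIG libraries. The nearly equal BATF values fell between the MIG values. The log2 fold change was -0.10 ± 0.19 SE (95% interval -0.57 to 0.36, edgeR adjusted p = 0.948).

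**Figure D2:**
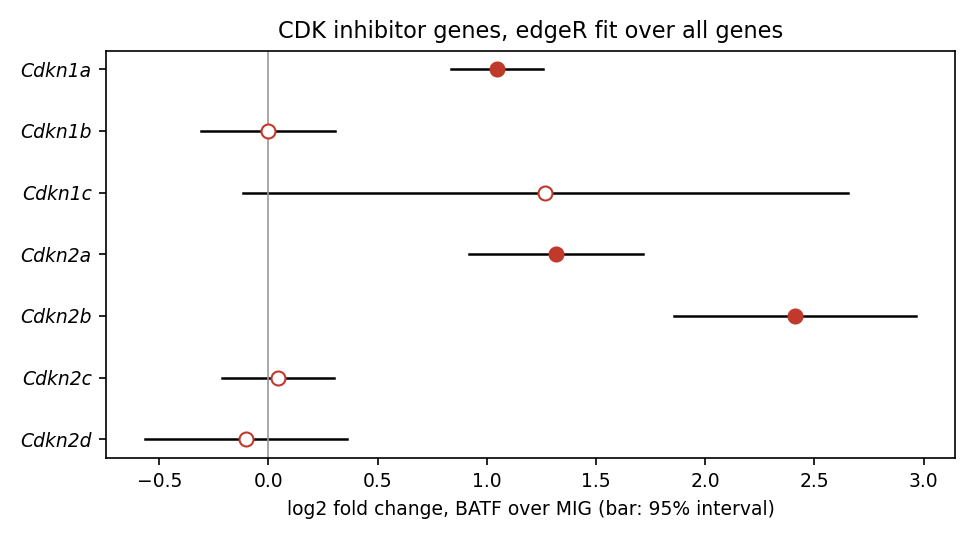
Log2 fold change of each CDK inhibitor gene, BATF over MIG, from the edgeR fit over all genes, with bars for the 95% interval and filled points for an adjusted p under 0.05. The intervals of Cdkn1a, Cdkn2a and Cdkn2b lie above 0, and those of Cdkn1b, Cdkn1c, Cdkn2c and Cdkn2d include 0.

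The order of the members by FPKM differed between the groups in 2 places. In BATF cells it ran Cdkn2c (82.2 ± 11.9), Cdkn1a (68.9 ± 1.16), Cdkn1b (50.8 ± 2.27), Cdkn2a (37.6 ± 1.00), Cdkn2b (10.9 ± 2.90), Cdkn2d (7.55 ± 0.024) and Cdkn1c (0.34 ± 0.069). In MIG cells it ran Cdkn2c (79.2 ± 1.54), Cdkn1b (51.1 ± 10.4), Cdkn1a (33.5 ± 1.39), Cdkn2a (15.2 ± 3.57), Cdkn2d (8.14 ± 2.03), Cdkn2b (2.05 ± 0.17) and Cdkn1c (0.14 ± 0.078), all means ± SD in FPKM over 2 libraries. No neighbours in either order had overlapping library values, and the narrowest step was that from Cdkn2c to Cdkn1a in BATF, a 1.19-fold ratio of means.

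Cdkn1a thus stood above Cdkn1b in the BATF libraries and below it in the MIG libraries. The FPKM ratio of Cdkn1a to Cdkn1b was 1.33 and 1.38 in BATF, against 0.556 and 0.789 in MIG. The ratio of Cdkn2b to Cdkn2d was 1.17 and 1.71 in BATF, against 0.226 and 0.287 in MIG. These ratios were not tested, as they come from the values on which the family was selected.

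Summed over the 7 genes, CDK inhibitor FPKM came to 249.5 and 267.0 in the BATF libraries, against 200.9 and 177.6 in the MIG libraries. The mean sum was 1.36-fold higher in BATF, a difference of 69.0 FPKM. Cdkn1a made up 35.4 FPKM of that difference, Cdkn2a 22.5 FPKM and Cdkn2b 8.82 FPKM, while Cdkn2c added 2.95 FPKM and the other 3 genes less than 0.6 FPKM each in either direction. The CIP/KIP sum was 122.5 and 117.5 FPKM in BATF, against 91.1 and 78.2 FPKM in MIG, and the INK4 sum was 127.0 and 149.4 FPKM in BATF, against 109.7 and 99.4 FPKM in MIG. The share of Cdkn2c in the family sum was 29.6% and 33.9% in BATF, against 40.0% and 44.0% in MIG, at similar FPKM in both groups.

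**Figure D3:**
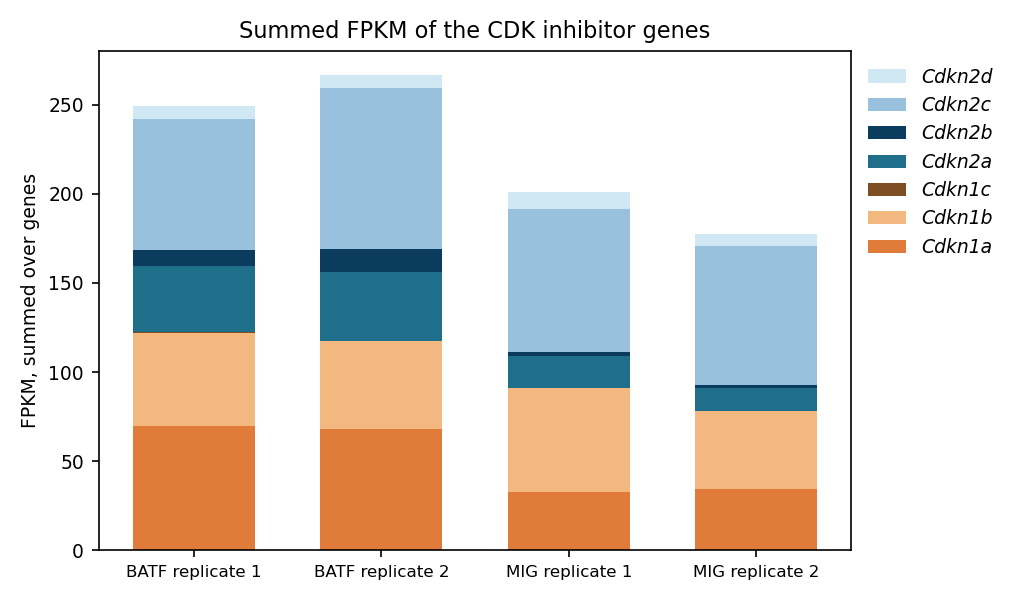
FPKM of the 7 CDK inhibitor genes stacked for each library, BATF at left and MIG at right. Both BATF bars, at 249.5 and 267.0 FPKM, are taller than both MIG bars, and the Cdkn1a, Cdkn2a and Cdkn2b blocks account for most of the difference.

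Position was compared next, with CPM and the edgeR fit of the nearest listed genes. Mtap, a methionine salvage enzyme gene next to Cdkn2a, had 85.3 and 100.7 CPM in the BATF libraries, against 77.0 and 96.8 CPM in the MIG libraries, and did not pass (log2 fold change 0.10 ± 0.14 SE, edgeR adjusted p = 0.921). Dmrta1, on the far side of Cdkn2b, was below 0.7 CPM in every library and was not tested. On chromosome 17, Trp53cor1, the p53-induced long intergenic RNA beside Cdkn1a, had 2.06 and 1.33 CPM in BATF, against 0.776 and 0.874 CPM in MIG, which did not pass (log2 fold change 1.03 ± 0.37 SE, edgeR adjusted p = 0.340). Rab44, on the other side of Cdkn1a, was at most 0.316 CPM. Faf1 beside Cdkn2c, Kri1 and Ap1m2 beside Cdkn2d, and Apold1 and 2810454H06Rik beside Cdkn1b did not pass either, with edgeR adjusted p between 0.653 and 0.998. Kcnq1 and Slc22a18 beside Cdkn1c and 4930522H14Rik beside Cdkn2c were too low to test.

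Likeness of pattern was measured as the root mean square distance between log2(CPM + 0.5) profiles, each centred on its own mean over the 4 libraries, among the 9361 genes that averaged 5 CPM or more. Closest to Cdkn1a were Rnf216 (0.0132), Ctla2a (0.0443), Cd93 (0.0722), Il2ra (0.0825) and Slc22a15 (0.0827). Closest to Cdkn2a were Ubtd1 (0.0555), Stk32c (0.092), Clip2 (0.107), Icos (0.111) and Lag3 (0.115). Closest to Cdkn2b were Shroom3 (0.0436), Pparg (0.225), Zbtb32 (0.228), Tubb6 (0.24) and Ltb4r1 (0.265). Shroom3 had 15.4 and 23.7 CPM in BATF, against 4.17 and 3.69 CPM in MIG, so that BATF replicate 2 was the higher library in it as in Cdkn2b. With 4 libraries in 2 groups, a profile is mostly the size of the group difference.

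The kinases that the inhibitors act on, their cyclins and the processes downstream were read from lists of related genes. These and the later lists were chosen with earlier results of these data known. Nothing is therefore read from their counts or medians beside those of all genes. Of 18 cyclins, CDKs and their activators tested, edgeR called 0, and 0 had an unadjusted p under 0.05; DESeq2 and limma on log2(FPKM + 1) also called 0. Over all 13008 genes tested, an unadjusted p under 0.05 was found for 6.69% as higher and for 4.09% as lower in BATF. The log2 fold changes of the cyclin and CDK list ran from -0.18 (Cdc25c) to 0.25 (Ccnd1) around a median of 0.00, against a median of -0.01 over all genes tested. Ccnd2 averaged 481.4 ± 16.8 CPM in BATF and 534.5 ± 40.8 CPM in MIG, and Ccnd3 451.8 ± 7.51 CPM in BATF and 405.6 ± 14.3 CPM in MIG. CPM does not allow for transcript length, and by FPKM Ccnd3 (248.5 in BATF, 223.7 in MIG) stood above Ccnd2 (84.7 and 94.2). Ccna2, the S phase cyclin, stood at 470.8 ± 4.196 CPM in BATF and 479.1 ± 25.7 CPM in MIG, and Cdc25b, a phosphatase that activates CDKs, at 323.2 ± 64.2 and 348.3 ± 89.6 CPM in the same order (SD, n = 2 each). Cdk4, the INK4 target, stood at 257.8 ± 12.1 CPM in BATF and 258.0 ± 8.29 CPM in MIG, and is named for that role after its values were seen. Without MIG replicate 2, edgeR called 1 gene of this list, Cdk6, as higher.

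Of 18 replication and proliferation genes tested, edgeR called 0, with 0 at an unadjusted p under 0.05, and DESeq2 and limma called 0. The median log2 fold change was -0.03 and the range -0.16 (Cdt1) to 0.22 (Mki67). Mki67, the proliferation marker Ki-67, averaged 1406 ± 41.5 CPM in BATF and 1207 ± 176.5 CPM in MIG. Top2a, the DNA topoisomerase of dividing cells, averaged 1647 ± 16.1 CPM in BATF and 1793 ± 139.3 CPM in MIG. Pcna, the sliding clamp of DNA polymerase, stood at 758.6 ± 15.1 CPM in BATF and 756.3 ± 30.8 CPM in MIG, and Mcm5 of the replicative helicase at 611.7 ± 7.002 and 630.6 ± 19.3 CPM in the same order.

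Of 13 RB and E2F family genes tested, edgeR, DESeq2 and limma called 0. At an unadjusted p under 0.05, 2 of the 13 were higher and 0 lower, beside 6.69% and 4.09% of all genes. The median of the list was 0.03 on the log2 scale. The 2 genes were Rbl2, the pocket protein p130 of quiescent cells (0.32 ± 0.08 SE), and Tfdp2, an E2F dimer partner (0.57 ± 0.14 SE), named after their values were seen, with edgeR adjusted p of 0.164 and 0.148. E2f2 averaged 293.9 ± 41.5 CPM in BATF and 291.1 ± 36.0 CPM in MIG. It was the highest E2F gene by CPM, but by FPKM E2f4 (107.2 in BATF, 98.9 in MIG) stood above E2f2 (62.4 and 62.3). Tfdp1 (log2 fold change -0.0097), E2f4 (0.12) and Rbl1 (-0.092) did not pass. Without MIG replicate 1, edgeR called Tfdp2.

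Of 18 genes for the turnover and phosphorylation of CIP/KIP proteins, edgeR, DESeq2 and limma called 0. An unadjusted p under 0.05 was found for 1 gene with a positive and 1 with a negative log2 fold change, beside 6.69% and 4.09% of all genes, and the median was 0.05. Skp2, the F-box subunit that marks p27 for degradation, averaged 18.3 ± 1.32 CPM in BATF and 16.97 ± 0.37 CPM in MIG, and is named for that role after its values were seen. Skp1a, the adaptor of the same ligase, averaged 136.6 ± 3.41 CPM in BATF and 171.1 ± 2.35 CPM in MIG (log2 fold change -0.32, edgeR adjusted p = 0.146). Pim1, a kinase that phosphorylates p21 and p27, averaged 264.8 ± 7.99 CPM in BATF and 220.4 ± 5.87 CPM in MIG (log2 fold change 0.26, edgeR adjusted p = 0.237). Ddb1 (0.05) and Akt1 (0.19) did not pass. EdgeR called 1 gene of this list as lower without BATF replicate 2 (Pim2) and 1 without MIG replicate 2 (Rnf123).

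Of 21 p53 pathway genes tested, edgeR and limma called 0 and DESeq2 called 2, Ccng1 and Phlda3, both higher. Over all 12655 genes tested in DESeq2, 345 were called, 253 higher and 92 lower in BATF. At an unadjusted p under 0.05 edgeR had 9 of the 21 higher and 0 lower, beside 6.69% and 4.09% of all genes. A positive log2 fold change was seen in 16 of the 21 and in 48.5% of all genes, with a median of 0.26 against -0.01 over all genes tested. As the list was chosen with earlier results of these data known, nothing is read from that comparison. Trp53 itself stood at 218.9 ± 7.25 CPM in BATF and 219.3 ± 25.4 CPM in MIG. Ccng1, a cyclin G gene induced by p53, averaged 354.4 ± 48.2 CPM in BATF and 254.4 ± 7.17 CPM in MIG (log2 fold change 0.48 ± 0.11 SE, edgeR adjusted p = 0.126). Bax, a pore former of apoptosis, averaged 121.5 ± 11.3 CPM in BATF and 100.8 ± 10.8 CPM in MIG, and Trp53inp1 had a log2 fold change of 0.20. Mdm2, the ligase that p19ARF binds, averaged 99.9 ± 1.77 CPM in BATF and 83.3 ± 4.504 CPM in MIG (edgeR adjusted p = 0.279) and is named after its values were seen, as is Phlda3 (log2 fold change 0.76, edgeR adjusted p = 0.194). EdgeR called 0 of these genes without MIG replicate 1 and 1 gene, each time higher, without each of the other libraries (Sesn1 without BATF replicate 1, Phlda3 without BATF replicate 2, Ccng1 without MIG replicate 2).

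Among 13 genes of TGF-beta, MYC and FOXO control, Smad3 rose, Foxo1 fell and 11 did not pass. Over all genes tested, edgeR called 0.884% as higher and 0.208% as lower in BATF. At an unadjusted p under 0.05 in edgeR, 2 of the 13 were higher and 3 lower, beside 6.69% and 4.09% of all genes. Smad3, a transducer of TGF-beta signals, averaged 134.2 ± 6.92 CPM in BATF and 88.1 ± 3.55 CPM in MIG (log2 fold change 0.61 ± 0.08 SE, edgeR adjusted p = 0.0279). Smad3 no longer passed when BATF replicate 1 was left out (edgeR adjusted p = 0.0658) or in limma on log2(FPKM + 1) (0.0869). Foxo1, a forkhead factor known to activate Cdkn1b, averaged 148.0 ± 2.68 CPM in BATF and 226.5 ± 1.68 CPM in MIG (log2 fold change -0.61 ± 0.08 SE, edgeR adjusted p = 0.0229). Leaving out either BATF library took Foxo1 above the threshold of 0.05, to edgeR adjusted p-values of 0.0604 without replicate 1 and 0.0620 without replicate 2, as did limma (0.0758). Tgfb1, the ligand, averaged 301.9 ± 17.7 CPM in BATF and 222.1 ± 3.21 CPM in MIG and missed the threshold (log2 fold change 0.44, edgeR adjusted p = 0.0734), although DESeq2 called it, as did edgeR without MIG replicate 2 or without the low-count filter. Myc averaged 152.5 ± 11.1 CPM in BATF and 163.1 ± 16.3 CPM in MIG. Tgfbr2 (log2 fold change -0.23, edgeR unadjusted p = 0.025) and Smad4 (-0.063) did not pass, and the list's median was -0.10. Smad7, named after its values were seen, did not pass either (log2 fold change -0.34, edgeR adjusted p = 0.164).

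Of 13 Polycomb genes and related demethylases, edgeR, DESeq2 and limma called 0. An unadjusted p under 0.05 was found for 3 genes with positive and 1 with negative log2 fold changes, beside 6.69% and 4.09% of all genes, around a median of 0.05. Polycomb complexes are known to silence the Cdkn2a and Cdkn2b locus. Ezh2, the H3K27 methyltransferase, averaged 316.9 ± 36.1 CPM in BATF and 241.1 ± 16.4 CPM in MIG (log2 fold change 0.39 ± 0.11 SE, edgeR adjusted p = 0.194). Suz12 (0.10) and Eed (-0.067) did not pass. Bmi1, a classical repressor of Cdkn2a named after its values were seen, averaged 53.1 ± 0.36 CPM in BATF and 44.2 ± 4.56 CPM in MIG (edgeR adjusted p = 0.421). Without MIG replicate 2, edgeR called Ezh2 as higher and Kdm6b, an H3K27 demethylase gene, as lower.

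**Figure D4:**
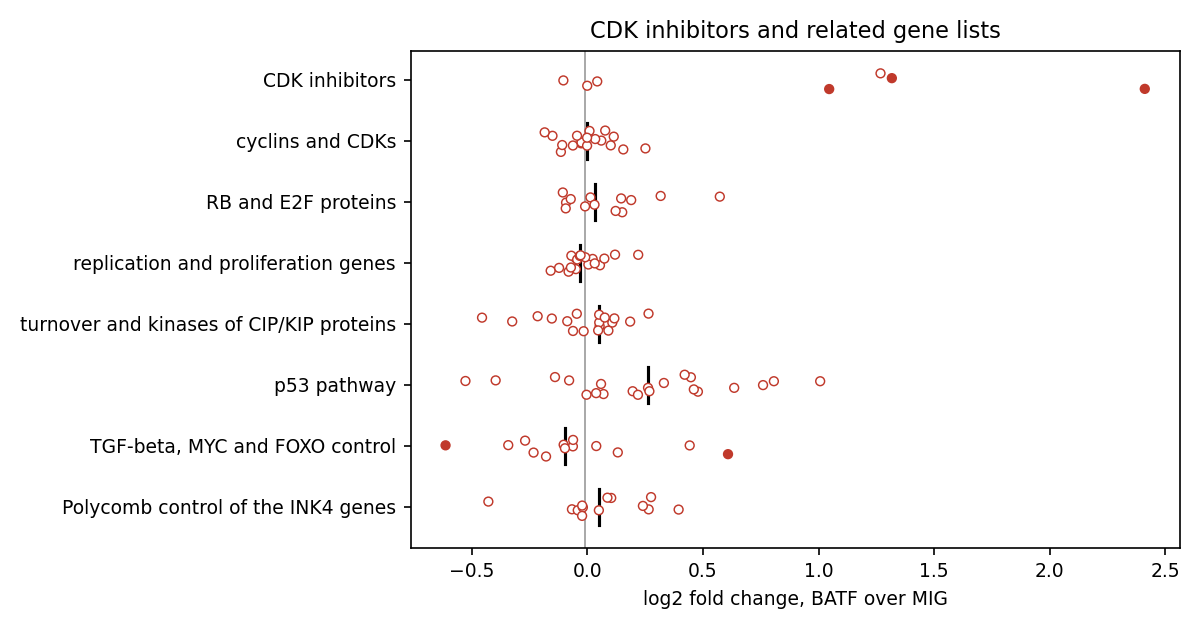
Log2 fold change, BATF over MIG, of each tested gene of the CDK inhibitor family and of 7 related lists, with filled points for an adjusted p under 0.05, black bars for list medians and a grey line for the median of all genes tested (-0.01). Smad3 and Foxo1 are the called genes outside the family, and the points of the cyclin and CDK list and of the replication list lie between -0.18 and 0.25.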

How the data were processed

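Poly(A) RNA libraries (2 BATF, 2 MIG) were processed with TopHat2 2.1.1, Cufflinks 2.2.2 and Cuffdiff on mm9, per the submitters' processing notes. Not given in the sources used here are the annotation and whether counting was stranded. The table the authors deposited holds estimated counts (fragments per gene before scaling), a scaled fragment signal that the authors' run made with 1 factor per library, and FPKM, per the file headers. Of the estimated counts, 97.6% were whole numbers. The table numbers replicates from 0; 0 was read as replicate 1 and 1 as replicate 2, which no label states and which changes no group comparison.

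Estimated counts were first made whole by rounding. The test was edgeR 4.0.16 (R 4.3.3), with filterByExpr, TMM factors (0.988 to 1.01), glmQLFit and glmQLFTest without covariate, and Benjamini-Hochberg adjustment over 13008 genes at 0.05. CPM values are TMM-scaled. Intervals on fold changes use the test's degrees of freedom. No library repeated another: chi-square values per gene between replicates averaged 9.49 (BATF) and 17.7 (MIG). Alternatives used DESeq2 1.42.0, limma 3.58.1 (genes with a mean of at least 0.5 FPKM), RLE factors, no filter, a replicate block and fits without each library.

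The 7 genes and the 7 related lists (114 entries) were chosen with earlier results of these data known. Named list genes were those called and the 4 others of each list with the highest mean CPM, with 5 nearest profiles for each called inhibitor and the nearest listed gene on each side; exceptions are named as such, and 1 gene that the rule names is not reported here.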

Additional observations from a re-analysis of the deposited data

How the results depend on the processing

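EdgeR called Cdkn1a, Cdkn2a and Cdkn2b without each library in turn, with RLE factors, with no low-count filter and with the replicate block, as did DESeq2; limma called Cdkn1a and Cdkn2b but not Cdkn2a, at log2 fold changes of 1.28 (adjusted p = 0.0659) on log2(FPKM + 1) and 1.33 (0.0561) on log2(FPKM + 0.1). Without 1 library each, Cdkn1b ran from -0.18 to 0.20, Cdkn2c from -0.11 to 0.18 and Cdkn2d from -0.32 to 0.15, so their signs turned. Cdkn1b also turned in limma (0.0058 and 0.0062), with RLE factors (0.00042) and with the block (0.0096). Cdkn1c got no adjusted p in DESeq2 and was below the limma filter.

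The 142 calls (115 higher, 27 lower) became 345 (253, 92) in DESeq2, 34 (27, 7) in limma, 349 (266, 83) with no filter, and 248 to 589 (192 to 320, 55 to 269) without 1 library, highest without MIG replicate 2; these fits take the spread from the group that keeps 2 libraries. The cause was not tested. Related lists: p53 genes were called 2 times in DESeq2, 1 time with no filter and 0 to 1 times without 1 library; the TGF-beta, MYC and FOXO list 0 times in limma and 0 to 3 without 1 library; Polycomb 0 to 2; cyclins and CDKs, RB and E2F, and CIP/KIP turnover 0 to 1 each.

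The replicate numbers are shared by the groups, but no label says that they pair libraries; same-numbered libraries deviated together over 9358 genes (correlation 0.472, with 2 pairs). With the replicate block, which leaves 1 residual degree of freedom, 1504 genes were called (916, 588), among them 2 RB and E2F genes, 1 replication gene, 3 turnover genes, 10 p53 genes (9 higher, 1 lower), 5 of the TGF-beta, MYC and FOXO list and 4 Polycomb genes. By mean CPM over the 4 libraries, without length, Cdkn1b ranks 2 and Cdkn1a 3 in the family. Depth limits Cdkn1c.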
